A study of Mus musculus with 12 samples.

Results

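Coating of the dish with fibronectin was examined in IgG-treated bone marrow macrophages. Gene counts of 3 libraries on fibronectin and 3 libraries on uncoated dishes were compared across every gene with at least 10 counts in 3 or more of these 6 libraries, which left 13084 of the 54532 genes in the table. The 6 libraries are taken from a set of 12. The other 6 came from cells given a neutralizing anti-ITGA5 antibody, 3 on fibronectin and 3 on uncoated dishes. They are used to show where the coating effect differed, for a second reading of the called genes, and in an alternative fit of all 12 libraries. All cells were wild-type C57BL/6J macrophages from mice 2 to 3 months old, differentiated with CSF-1 at 12 ng/ml for 24 h and then 120 ng/ml for 48 h in medium with 15% serum, and passaged once onto dishes with or without a fibronectin coat of 10 µg/ml. Each dish then received 10 µg/ml of IgG or of the antibody for 24 h. The control dishes therefore also carried IgG, and cells of both groups had met serum during differentiation. The study describes 3 biologically independent experiments in a group, and the labels do not say whether replicates came from separate mice. The p-values below measure the spread between these libraries. Counts on genes were 17365862 to 17635840 in the 3 IgG uncoated libraries and 18843744 to 22075432 in the 3 IgG fibronectin libraries.

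Fibronectin is a large glycoprotein of plasma and of the provisional matrix of wounds and infarcts. Cells bind its RGD motif mainly through integrin α5β1 (encoded by Itga5 and Itgb1) and αv integrins, and another of its domains through α4 integrins. Bound integrins cluster with focal adhesion kinase and actin linkers, and in macrophages adhesion is known to change shape, inflammatory genes and matrix-degrading enzymes.

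The libraries carried macrophage transcripts. All 28 genes of the macrophage identity list were tested. EdgeR called none in either direction and DESeq2 called 1. An unadjusted p-value under 0.05 was seen for 8 of the 28, against 1270 of all 13084 tested genes. The summed level of the list was 15268 to 16171 FPKM without the coat and 16024 to 16341 FPKM with it (FPKM, fragments scaled to gene length and library size, is the authors' scale for levels). The fibroblast markers Col1a1, Col3a1, Dcn and 9 others together reached 0.358 to 0.507 FPKM on uncoated dishes and 0.437 to 0.576 FPKM on fibronectin. The T cell markers Cd3e, Cd3d and Cd3g had no count in any of the 6 libraries. Other marker lists were not at zero. Sums for 13 lymphocyte markers were 5.92 to 6.99 FPKM on uncoated dishes and 5.58 to 7.06 FPKM on fibronectin. For 8 endothelial markers they were 8.53 to 9.21 and 8.99 to 9.96 FPKM. For 8 megakaryocyte and erythroid markers they were 516 to 637 and 544 to 699 FPKM. EdgeR called no member of these lists.

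With the replicate number left out of the fit, few transcripts were called as changed on fibronectin, and most of those by little. Genes for MHC class II antigen presentation, the matrix metalloproteinases Mmp13, Mmp12 and Mmp8, and the lipid genes Lpl and Fabp4 rose, and Fcrls, Itga8, Ccnd2 and a ribosomal RNA gene fell together with Gm23935 and Lars2. A gene was called when the edgeR quasi-likelihood test gave it an adjusted p-value (Benjamini-Hochberg, all tested genes) no higher than 0.05, and 58 genes were, or 0.443% of those tested. Of these, 42 were higher on fibronectin (0.321%) and 16 lower (0.122%), and 55 of the 58 were protein coding. These shares of all tested genes are the background for the counts of called list members below. The median size of their log2 fold changes was 0.28, 31 were below 0.3 and 4 reached 1. Over all 13084 genes the median log2 fold change was -0.00085. CPM (counts scaled to library size) of the 2 groups did not overlap for any of the 58 genes, and this was so for 1987 of all genes tested (15.2%). An unadjusted p-value under 0.05 was seen for 1270 genes. The number called depended on the method. DESeq2 called 125 genes, limma on log2(FPKM + 0.1) 5, and edgeR with a block for the replicate number 411. Genes nearest to the threshold were Ptprs, Folr2 and BC005537 just inside it (adjusted p = 0.0476 for each by edgeR) and Cd63 and Nrp1 just outside it (adjusted p = 0.0516 for each by edgeR).

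**Figure D1:**
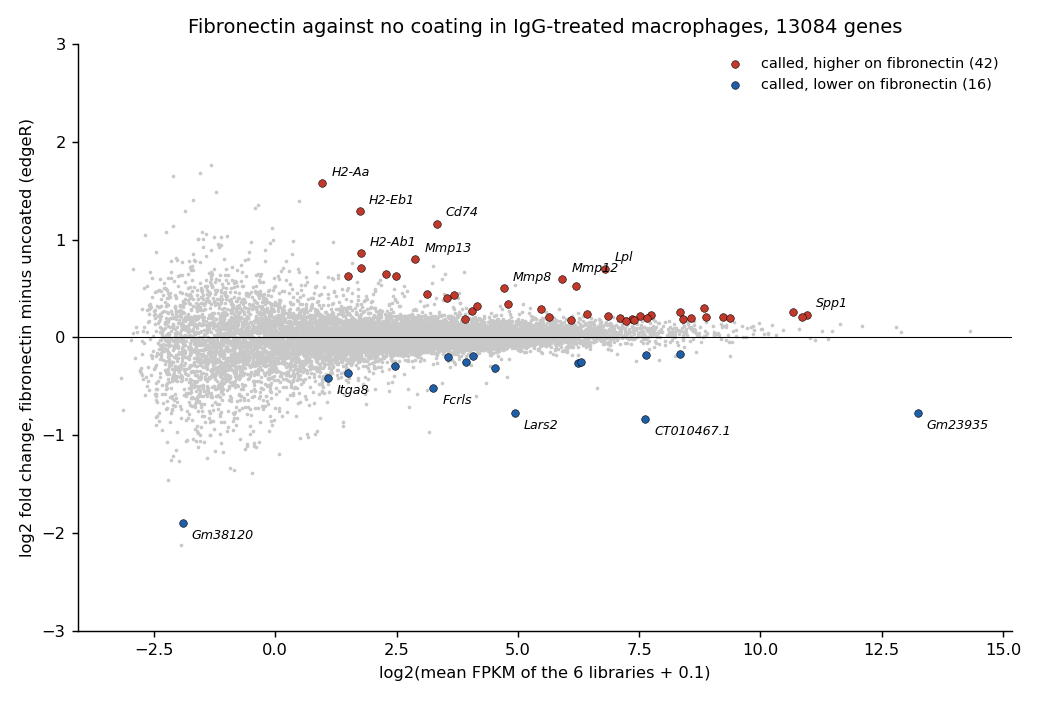
Log2 fold change of each of 13084 genes (fibronectin minus uncoated, IgG, edgeR) against log2 of its mean FPKM over the 6 libraries plus 0.1. Red points are the 42 genes called higher and blue points the 16 called lower, and nearly all lie within 1 of zero except H2-Aa, H2-Eb1 and Cd74 above and Gm38120 below.

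The directions of the 58 called genes did not turn when 1 library was left out. This was nearly fixed in advance, because CPM of the groups did not overlap for any of them. The number of genes that passed depended on single libraries. Without IgG uncoated replicate 1 or IgG fibronectin replicate 1 it fell to 9 and 13, without IgG uncoated replicate 2 or IgG fibronectin replicate 3 to 31 and 29, and without IgG uncoated replicate 3 or IgG fibronectin replicate 2 it rose to 88 and 95. The 9 genes that passed in all 6 of these fits were H2-Aa, Cd74, Lpl, Col18a1, Mmp12, Npy, Gm23935, Lars2 and CT010467.1. The other 49 lost the call without at least 1 library, 48 of them without IgG uncoated replicate 1 and 45 without IgG fibronectin replicate 1. When the 12 libraries of both antibodies shared 1 estimate of the spread, 10 of the 58 passed, namely H2-Aa, H2-Eb1, Cd74, H2-Ab1, Lpl, Col18a1, Mmp12, Npy, Fabp4 and Fcrls. H2-Aa, Lpl and Mmp12 passed under every alternative that gave them an adjusted p-value. With libraries scaled by their totals instead of by TMM, the split was 34 higher and 23 lower instead of 42 and 16.

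MHC class II genes had the largest rises. Class II molecules present peptides from the endosome to CD4 T cells. H2-Aa and H2-Ab1 encode the α and β chains of I-A, H2-Eb1 the β chain of I-E, and Cd74 the invariant chain that guides them to the endosome. H2-Aa (chr17:34282744-34287827, mm10) and H2-Eb1 (chr17:34305877-34316199) lie close together with H2-Ab1 (chr17:34263209-34269418). The 300 bases around the annotated start of H2-Aa and H2-Eb1 are shown because these 2 neighbours rose together. They are RefSeq windows on GRCm38.p6 from 250 bases before the start to 50 after it, read on the strand of the gene, 5′ to 3′, at chr17:34287774-34288073 on the minus strand and chr17:34305617-34305916 on the plus strand. Capitals mark the letters CTGATTGG, the Y box of class II promoters, searched on both strands and chosen with the sequences in view.
H2-Aa: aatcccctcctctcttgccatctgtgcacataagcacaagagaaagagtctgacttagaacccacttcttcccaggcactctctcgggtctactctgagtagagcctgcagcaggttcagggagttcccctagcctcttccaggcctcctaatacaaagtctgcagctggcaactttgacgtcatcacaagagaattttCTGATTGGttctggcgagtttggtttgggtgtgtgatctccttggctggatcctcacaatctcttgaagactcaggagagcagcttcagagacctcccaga
H2-Eb1: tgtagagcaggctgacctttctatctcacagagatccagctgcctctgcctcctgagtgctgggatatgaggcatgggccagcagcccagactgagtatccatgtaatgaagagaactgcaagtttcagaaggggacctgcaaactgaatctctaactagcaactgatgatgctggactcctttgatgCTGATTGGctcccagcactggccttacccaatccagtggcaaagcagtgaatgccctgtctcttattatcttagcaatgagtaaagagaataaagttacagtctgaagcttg
The match ended 44 bases before the start of H2-Aa and 55 bases before that of H2-Eb1. Of all 32851 windows, 4.1% held these letters, as did 4.7% of the 27025 genes with a window. Among the 34 genes called higher that had a window, H2-Aa, H2-Eb1 and Spp1 held them. A match is a string of letters and not a measured site.

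H2-Aa read 0.926, 0.905 and 0.944 FPKM on uncoated dishes and 2.75, 2.70 and 2.91 FPKM on fibronectin. The libraries of a group lay close together and the groups were far apart, so that the gene rose 2.99-fold, a log2 fold change of 1.58 (SE 0.17, n = 3 per group, adjusted p = 0.000322 by edgeR). H2-Eb1 was more variable, with 1.37, 2.20 and 2.02 FPKM before and 5.14, 3.84 and 4.87 FPKM after, a log2 fold change of 1.29 (SE 0.20, adjusted p = 0.00605 by edgeR). Cd74 (chr18:60803848-60812646) was the most abundant of the 4, at 4.80, 7.14 and 6.35 FPKM on uncoated dishes and 12.9, 12.999 and 15.3 FPKM on fibronectin, where it rose by 1.16 on the log2 scale (SE 0.12, adjusted p = 0.000322 by edgeR). H2-Ab1 went from 2.16, 2.69 and 2.16 FPKM to 4.48, 4.12 and 4.18 FPKM, a log2 fold change of 0.86 (SE 0.14, adjusted p = 0.0121 by edgeR). All 4 were low transcripts, with 28 to 401 counts in a library, and the groups did not overlap for any of them.

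The other 8 tested class II genes did not pass. H2-DMa, a subunit of the peptide exchange factor DM, was 7.34 to 7.82 FPKM without and 7.15 to 7.31 FPKM with fibronectin (log2 fold change -0.08, SE 0.09). Ctss, the protease that trims the invariant chain, had a log2 fold change of 0.15 (SE 0.035, adjusted p = 0.0927 by edgeR). Ciita, the class II transactivator, had too few counts to be tested, with at most 10 in a library. Over the 12 tested members the median log2 fold change was 0.13, beside -0.00085 over all genes. The calls of H2-Eb1 and H2-Ab1 were lost without IgG uncoated replicate 1 (lowest log2 fold change on leaving out any 1 library 1.11 and 0.80) or IgG fibronectin replicate 1. Class II genes are also expressed by dendritic cells and B cells, and in bulk RNA more cells of a type cannot be told apart from more RNA per cell. The 10 dendritic cell markers (among them Flt3, Xcr1, Ccr7 and Siglech) summed to 0.395 to 0.506 FPKM on uncoated dishes and 0.424 to 0.920 FPKM on fibronectin, and 9 of them were too low to test. The 13 lymphocyte markers summed to 5.92 to 6.99 and 5.58 to 7.06 FPKM.

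**Figure D2:**
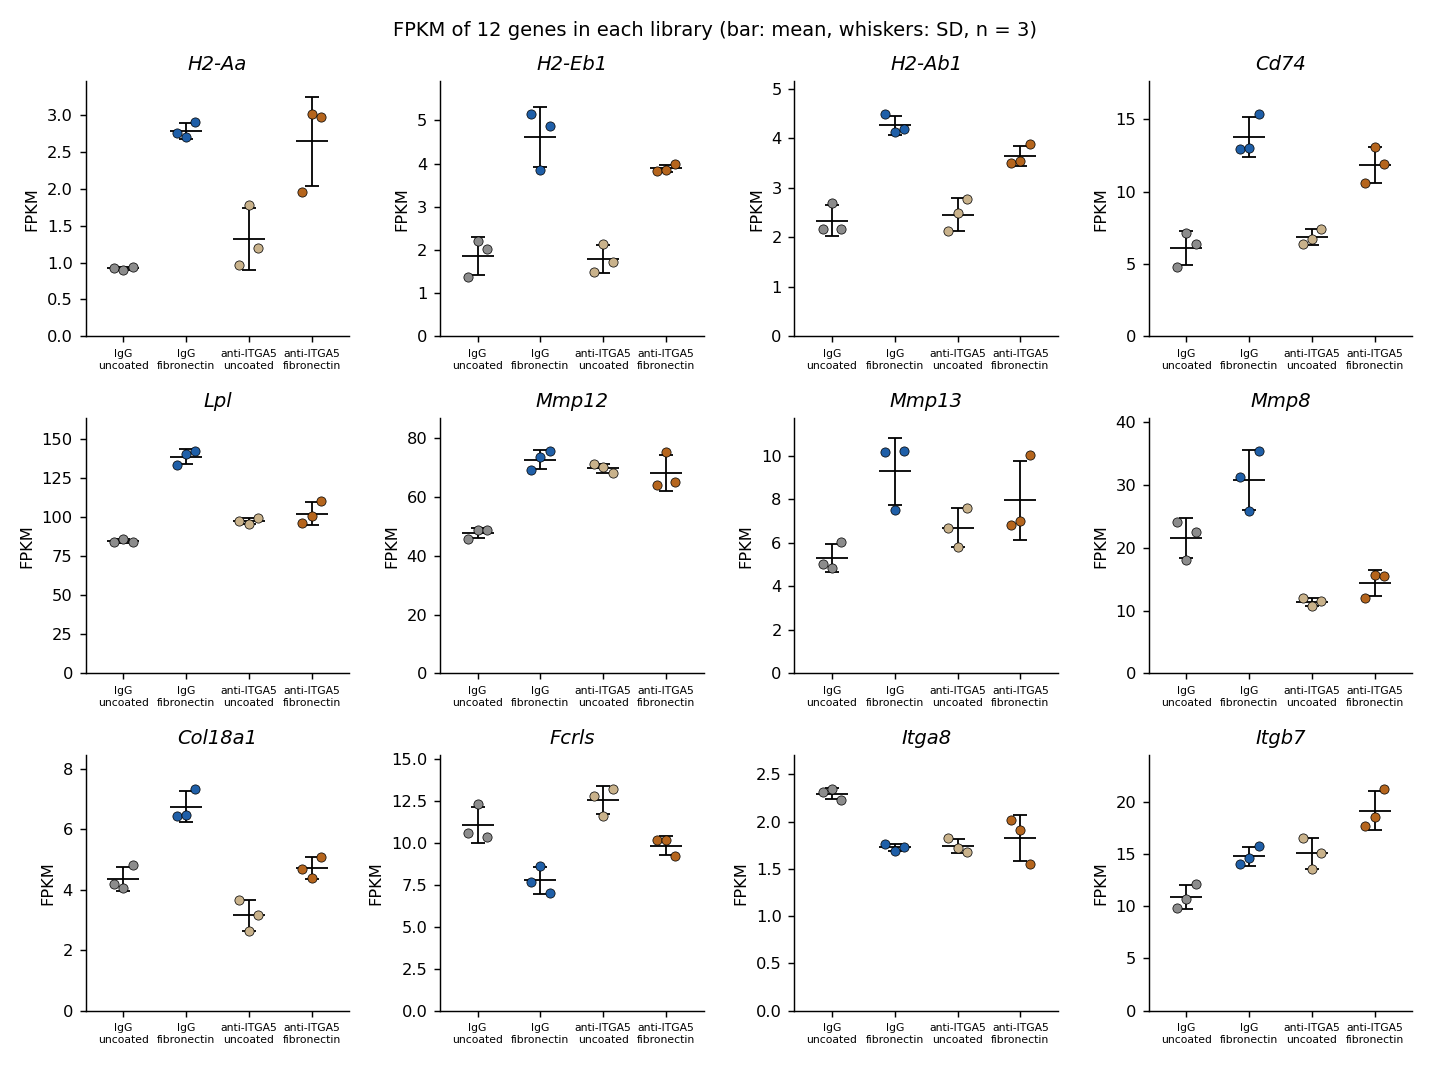
FPKM of 12 genes in each of the 12 libraries, with 1 point per library, the mean as a bar and the SD as whiskers (n = 3 per group). H2-Aa, H2-Eb1, H2-Ab1 and Cd74 were higher on fibronectin in both antibodies, whereas Lpl went from 84.8 to 138.7 FPKM in IgG and from 97.6 to 102.4 FPKM in anti-ITGA5.

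Of the matrix metalloproteinases, 3 genes on chromosome 9 rose. Mmp13 (collagenase 3), Mmp12 (macrophage elastase) and Mmp8 (the collagenase that neutrophils also make) were the 3 called members among 26 tested matrix proteases and inhibitors, none was called lower, and the median of the list was 0.11. The windows around the starts of Mmp13 and Mmp12 are shown because both genes rose and both held the letters TGANTCA of an AP-1 site, marked in capitals and found by a search of both strands that was chosen with the sequences in view. They lie at chr9:7272264-7272563 and chr9:7347124-7347423, both on the plus strand, and Mmp12 had 1 more window without a match.
Mmp13: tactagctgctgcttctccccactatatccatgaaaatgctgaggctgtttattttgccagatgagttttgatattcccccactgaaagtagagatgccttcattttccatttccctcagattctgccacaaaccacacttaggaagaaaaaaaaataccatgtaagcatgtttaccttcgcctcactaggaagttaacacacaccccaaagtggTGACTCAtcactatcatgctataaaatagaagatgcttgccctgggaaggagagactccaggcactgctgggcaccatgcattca
Mmp12: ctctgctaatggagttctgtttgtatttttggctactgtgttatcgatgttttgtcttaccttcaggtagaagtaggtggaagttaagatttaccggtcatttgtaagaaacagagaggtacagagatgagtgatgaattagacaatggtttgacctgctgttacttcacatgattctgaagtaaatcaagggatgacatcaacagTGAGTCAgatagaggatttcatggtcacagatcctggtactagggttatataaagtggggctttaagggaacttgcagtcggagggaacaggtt
These letters were present in 7.81% of all windows. A gene may have more than 1 window, and 8.97% of the 27025 genes with a window held them. They were found for 8 of the 34 genes called higher that had a window, and for none of the 11 called lower. Mmp8 was not among these 8.

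Mmp12 read 45.9, 48.7 and 49.0 FPKM on uncoated dishes and 69.2, 73.5 and 75.6 FPKM on fibronectin, a 1.51-fold rise (log2 fold change 0.60, SE 0.042, adjusted p = 9.70e-07 by edgeR). Mmp1b overlaps it on the opposite strand, and since the strand setting of the counting is not given in the sources used here, their reads may not be told apart. Mmp13 was lower, at 5.002, 4.84 and 6.04 FPKM and then 10.2, 7.51 and 10.2 FPKM, a log2 fold change of 0.80 (SE 0.12, adjusted p = 0.00552 by edgeR). Mmp8 read 24.0, 18.02 and 22.5 FPKM and then 31.2, 25.7 and 35.3 FPKM, a log2 fold change of 0.51 (SE 0.10, adjusted p = 0.0398 by edgeR). Fibronectin replicate 2 was the lowest of its group for Mmp13 and Mmp8, and uncoated replicate 2 was the lowest of its group for both. The calls of Mmp13 and Mmp8 were lost without IgG uncoated replicate 1 or IgG fibronectin replicate 1, and that of Mmp8 also without IgG uncoated replicate 2 or 3 or IgG fibronectin replicate 3.

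Mmp8 is also a neutrophil marker. The 13 markers of neutrophils summed to 21.5 to 27.3 FPKM on uncoated dishes and 28.9 to 40.5 FPKM on fibronectin, of which Mmp8 made up most. Ly6g, Retnlg and Cxcr2 had no count, and DESeq2 called none of the list. The other tested members did not pass in edgeR, with log2 fold changes of 1.41 for Mpo (SE 0.45, at most 21 counts, groups not overlapping, adjusted p = 0.252 by edgeR), 0.20 for Prtn3 and 0.06 for S100a8. All 4 tested members were thus positive, with a median of 0.35. Other proteases gave no call. Mmp9 was 7.34 to 8.25 FPKM and 8.41 to 9.34 FPKM (log2 fold change 0.19, adjusted p = 0.354 by edgeR), Mmp14 stayed under 1 FPKM in all 6 libraries, and the inhibitor Timp2 had a log2 fold change of 0.06 (SE 0.044).

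Lipid genes included the smallest adjusted p-value of the comparison. Lpl encodes lipoprotein lipase, which releases fatty acids from lipoproteins. It read 84.1, 86.3 and 84.2 FPKM on uncoated dishes and 133.2, 140.6 and 142.2 FPKM on fibronectin, with a spread far below the difference (1.63-fold, log2 fold change 0.70, SE 0.036, adjusted p = 1.95e-08 by edgeR). Fabp4, a carrier of fatty acids in the cytosol, went from 6.92, 7.99 and 6.99 FPKM to 10.3, 10.2 and 9.38 FPKM (log2 fold change 0.44, SE 0.068, adjusted p = 0.00618 by edgeR), a call lost without IgG uncoated replicate 1 or IgG fibronectin replicate 1. Gpnmb, a membrane glycoprotein of lipid-laden and lysosome-rich macrophages, was among the most abundant genes called, at 1738, 1757 and 1689 FPKM and then 2008, 2076 and 1914 FPKM, a log2 fold change of 0.21 that lost its call without IgG uncoated replicate 1 or IgG fibronectin replicate 1. These were the 3 members called of 28 tested genes of lipid uptake and efflux, whose median was 0.028. The scavenger receptor Cd36 had a log2 fold change of 0.12 (SE 0.048) and the nuclear receptor Pparg of -0.07 (SE 0.090), neither of them past the test.

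Integrin genes moved in both directions and those of the fibronectin receptor α5β1 did not pass. Itga5 read 44.8, 44.5 and 49.1 FPKM without and 45.5, 46.1 and 49.0 FPKM with fibronectin, so that the groups overlapped almost wholly (log2 fold change 0.017, SE 0.045, adjusted p = 0.943 by edgeR, and below zero by up to 0.017 under total-count scaling and without some libraries). Itgb1, its partner, was 264 to 282 FPKM and 275 to 284 FPKM (log2 fold change 0.027, SE 0.035). Of the 10 tested fibronectin and RGD-binding integrins, Itgb7 was called higher and Itga8 lower, and the median was -0.14. Itgb7, which pairs with α4, read 9.82, 10.7 and 12.1 FPKM and then 13.99, 14.6 and 15.8 FPKM (log2 fold change 0.44, SE 0.077, adjusted p = 0.0177 by edgeR). Itga8 encodes α8, which pairs with β1 and binds RGD. Its levels of 2.31, 2.35 and 2.23 FPKM fell to 1.76, 1.68 and 1.73 FPKM (log2 fold change -0.42, SE 0.085, adjusted p = 0.0427 by edgeR). The Itga8 call did not survive the removal of any 1 library, and that of Itgb7 was lost without any 1 of IgG uncoated replicates 1 and 2 and IgG fibronectin replicates 1 and 3. Itgav (log2 fold change -0.22, adjusted p = 0.0547 by edgeR) and Itga4 (-0.19, adjusted p = 0.122) did not pass, although 6 and 4 of 22 alternatives called them, DESeq2 among them for both.

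Of 9 other integrin genes tested, Itgb2 alone was called. Itgb2, the common β2 chain of leukocyte integrins, rose from 307 to 323 FPKM to 359 to 365 FPKM (log2 fold change 0.19, SE 0.034, adjusted p = 0.0177 by edgeR), and this call was lost without any 1 of IgG uncoated replicates 1 and 2 and IgG fibronectin replicates 1 and 3. Its partner Itgam had a log2 fold change of 0.022 (SE 0.038). Itgax, the CD11c chain, went from 0.795, 1.21 and 0.926 FPKM to 1.57, 1.74 and 1.47 FPKM without passing (log2 fold change 0.70, SE 0.15, adjusted p = 0.0603 by edgeR). None of the 37 tested focal adhesion and actin linker genes was called by edgeR, DESeq2 called 1 of them lower, and their median was -0.025. Of the 37, 7 had an unadjusted p-value under 0.05, against 1270 of all 13084 tested genes. Focal adhesion kinase, Ptk2, was 2.11 to 2.34 FPKM and 1.82 to 2.02 FPKM (log2 fold change -0.17, adjusted p = 0.475 by edgeR), and its relative Ptk2b was 46.5 to 47.9 FPKM and 45.8 to 46.8 FPKM. Fn1, the gene for fibronectin itself, was low at 1.54 to 2.43 FPKM and 1.53 to 2.24 FPKM.

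In a list of 26 tested cytoskeleton genes and targets of SRF or YAP, the intermediate filament Vim (log2 fold change 0.21), the actin monomer binder Tmsb10 (0.26) and the actin-regulating Marcksl1 (0.29) were called higher, none was called lower, and the median was 0.081. Tmsb10 read 299, 294 and 293 FPKM without and 370, 353 and 340 FPKM with fibronectin (SE 0.037, adjusted p = 0.00446 by edgeR). Of 29 matrix and matricellular genes, Spp1 and Lgals3 were called higher. Spp1 encodes osteopontin, a secreted ligand of RGD-binding integrins, and went from 1757, 1918 and 1777 FPKM to 2104, 2174 and 2149 FPKM (log2 fold change 0.23, SE 0.038, adjusted p = 0.0113 by edgeR). Lgals3, galectin-3, went from 1474, 1415 and 1585 FPKM to 1804, 1692 and 1868 FPKM (log2 fold change 0.26). Col18a1, the collagen from which endostatin is cut, was on no list. It rose from 4.20, 4.04 and 4.80 FPKM to 6.45, 6.46 and 7.34 FPKM (log2 fold change 0.63, SE 0.075, adjusted p = 0.000718 by edgeR). Col18a1 overlaps Slc19a1 on the opposite strand. Without IgG uncoated replicate 1 or IgG fibronectin replicate 1 the calls of Vim, Tmsb10, Marcksl1, Spp1 and Lgals3 were lost, those of Vim, Lgals3 and Marcksl1 also without IgG uncoated replicate 2, and those of Vim and Lgals3 without IgG fibronectin replicate 3.

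Inflammatory genes gave 3 calls among 52 tested members of the NF-kB and inflammatory list, all higher, with a median of 0.083. Cxcl2, a neutrophil-attracting chemokine, read 2.27, 2.46 and 2.76 FPKM and then 3.65, 4.35 and 4.30 FPKM (log2 fold change 0.71, SE 0.13, adjusted p = 0.0215 by edgeR). Tnip3, which encodes an inhibitor of NF-kB signalling, went from 1.81, 2.27 and 2.35 FPKM to 3.10, 3.70 and 3.12 FPKM (log2 fold change 0.62, SE 0.095, adjusted p = 0.00605 by edgeR). Clec4e, the receptor Mincle for mycobacterial glycolipids, went from 9.15, 10.2 and 10.2 FPKM to 12.7, 13.5 and 13.03 FPKM (log2 fold change 0.40, SE 0.056, adjusted p = 0.00335 by edgeR). Each of the 3 calls was lost without IgG uncoated replicate 1, and that of Cxcl2 also without IgG uncoated replicate 2 or IgG fibronectin replicate 1 or 3. Tnf (log2 fold change 0.19, adjusted p = 0.428 by edgeR) and Ccl2 (0.10, adjusted p = 0.561) did not pass.

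Other called genes spread over many functions. Npy, the precursor of neuropeptide Y, rose from 53.5, 63.9 and 62.9 FPKM to 86.7, 85.2 and 88.6 FPKM (log2 fold change 0.52, SE 0.068, adjusted p = 0.00145 by edgeR). Ass1, which makes argininosuccinate for arginine synthesis, rose from 3.07, 3.93 and 4.09 FPKM to 5.85, 5.06 and 6.59 FPKM (log2 fold change 0.65, SE 0.13, adjusted p = 0.0313 by edgeR), a call lost without IgG uncoated replicate 1 or 2 or IgG fibronectin replicate 1 or 3. Arg1, which breaks arginine down, was 43.5 to 56.0 FPKM and 52.2 to 71.3 FPKM, overlapped between groups and did not pass (log2 fold change 0.29, adjusted p = 0.298 by edgeR), while 3 of 22 alternatives called it. Smaller rises were called for both membrane subunits of the phagocyte NADPH oxidase, Cybb (0.24) and Cyba (0.20), for the glutathione peroxidase Gpx1 (0.30), and for Ifitm3 (0.19), an interferon-inducible membrane protein, each lost without IgG uncoated replicate 1 and IgG fibronectin replicate 1, among others. All 29 tested genes of the NRF2 antioxidant list had a positive log2 fold change, with a median of 0.11, and Esd was the called member. Of these, 16 had an unadjusted p-value under 0.05 and DESeq2 called 5, and the edgeR count ran from 0 with all 12 libraries in one fit to 12 with the replicate block. Among 50 interferon-stimulated genes 42 were positive with a median of 0.11, and none was called by edgeR or DESeq2, with 4 at an unadjusted p-value under 0.05. Over all tested genes 49.7% were positive. Other lists leaned too, with 68 of 77 respiratory chain genes positive, while 15 of 37 focal adhesion genes were. A lean of signs was thus not particular to the NRF2 and interferon lists. An unadjusted p-value under 0.05 was seen for 16 of 29 NRF2, 17 of 77 respiratory chain and 4 of 50 interferon genes. Over all tested genes it was seen for 1270 of 13084. DESeq2 called no respiratory chain gene. The 47 S phase and 69 G2 and M phase genes gave no call with edgeR or DESeq2, had medians of 0.019 and 0.0050, and held 1 and 0 genes at an unadjusted p-value under 0.05.

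**Figure D3:**
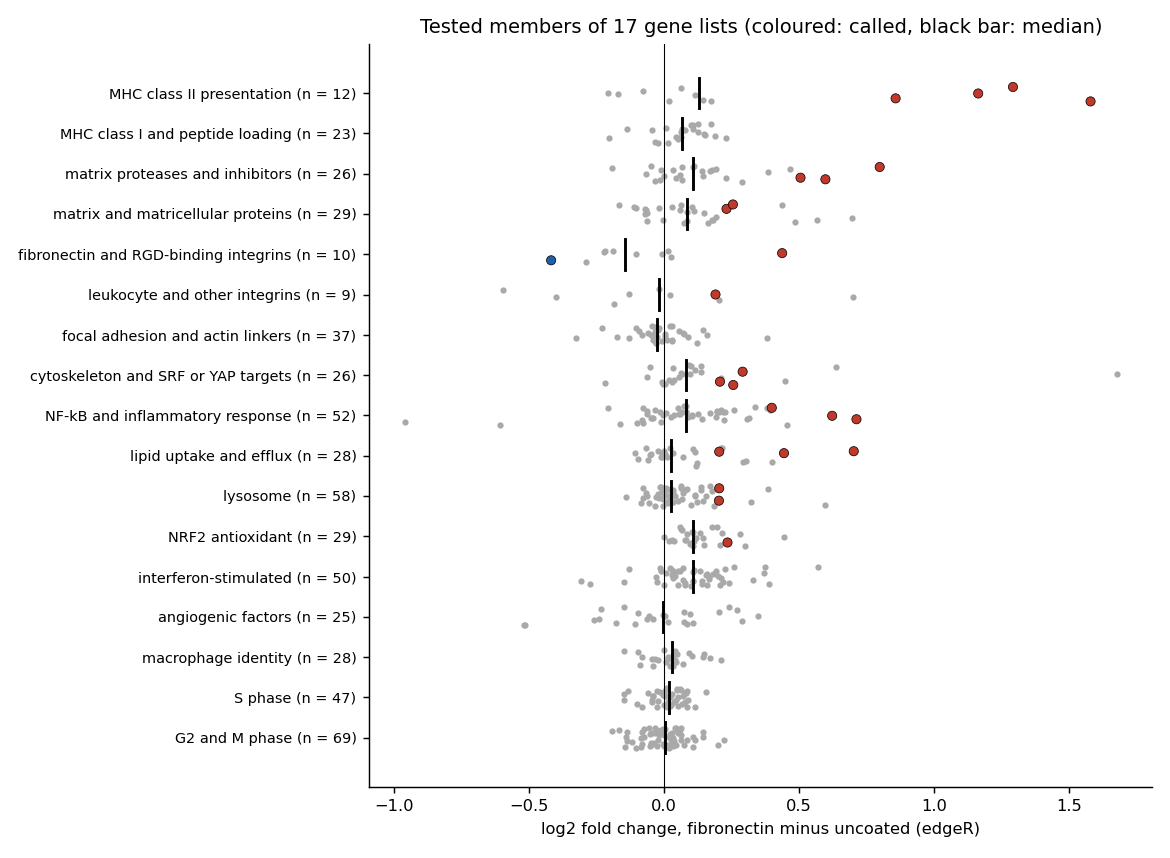
Log2 fold change (fibronectin minus uncoated, IgG, edgeR) of every tested member of 17 gene lists, with called members in colour and the median of a list as a black bar. Members called lie to the right in the class II, protease, lipid and NF-kB lists, while the focal adhesion and cell cycle lists have none and centre near zero, at -0.025 for focal adhesion.

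Genes that edgeR called lower formed no large group in these lists. Of 29 tested scavenger, phagocytic and Fc receptor genes, edgeR called none and DESeq2 called 3. An unadjusted p-value under 0.05 was seen for 13 of the 29, against 1270 of all 13084 tested genes. Signs were mixed, with 17 positive, 12 negative and a median of 0.017. The replicate block called 5 of them higher and 6 lower, and leaving out 1 library called up to 4 lower. Fcrls, an Fc receptor-like molecule of macrophages and microglia, read 10.6, 12.3 and 10.4 FPKM and then 7.71, 8.62 and 7.001 FPKM (log2 fold change -0.52, SE 0.092, adjusted p = 0.0178 by edgeR). F13a1, the A chain of coagulation factor XIII, fell from 27.8, 23.8 and 24.9 FPKM to 22.1, 19.4 and 20.2 FPKM (log2 fold change -0.32, SE 0.056, adjusted p = 0.0177 by edgeR). It was the called member of 10 monocyte markers, of which 6 were too low to test. The 10 markers summed to 28.2 to 32.5 FPKM without and 23.5 to 27.0 FPKM with fibronectin, and F13a1 made up most of these sums. Ccnd2, a G1 cyclin, fell from 3.31, 2.91 and 3.02 FPKM to 2.45, 2.30 and 2.47 FPKM (log2 fold change -0.36, SE 0.074, adjusted p = 0.0427 by edgeR). Igfbp4, which binds insulin-like growth factors, had a log2 fold change of -0.26 (SE 0.041), and the cofilin phosphatase gene Ssh2 of -0.29 (SE 0.051). Smaller falls were called for Bmp2k (-0.26), Rnase4 (-0.25, which overlaps Ang), Sbf2 (-0.20), Pik3cg (-0.19), Dab2 (-0.18) and BC005537 (-0.17). Pik3cg, the γ catalytic subunit of PI3-kinase, was the called member of 19 tested mediators of PI3K, FAK, MAPK, HIF and NRF2 signalling. The genes called lower had a median length of 7034 bases against 2419 for those called higher and 4094 for all tested, and across genes the log2 fold change had a Spearman rho of -0.18 with length and 0.13 with GC content. In limma on log2 CPM, 57 of the 58 calls were kept without and 43 with removal of both trends, and Ccnd2, Itga8, Ssh2, Sbf2 and Pik3cg were among the 15 lost. The call of Fcrls was lost without IgG uncoated replicate 1 or 2 or IgG fibronectin replicate 1 or 3, that of F13a1 without IgG uncoated replicate 1 or IgG fibronectin replicate 3, and that of Ccnd2 without any 1 library. Gm38120, an unclassified locus within Ncoa2, had the largest fall of all calls (-1.89) on 5 to 25 counts.

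The 3 genes CT010467.1, Gm23935 and Lars2 moved together. CT010467.1 is annotated as ribosomal RNA (chr17:39846353-39848827), Gm23935 as a microRNA gene of 57 bases (chr16:11144125-11144181) within Zc3h7a, and Lars2 encodes the mitochondrial leucyl-tRNA synthetase (chr9:123366927-123462666). Together they took 0.155%, 0.190% and 0.178% of the counts in the IgG uncoated libraries and 0.0794%, 0.0975% and 0.120% in the IgG fibronectin libraries. CT010467.1 fell by 0.83 on the log2 scale (SE 0.099, adjusted p = 0.000718 by edgeR), Lars2 by 0.78 (SE 0.096, adjusted p = 0.000933) and Gm23935 by 0.78 (SE 0.11, adjusted p = 0.00335). CT010467.1 overlaps Gm42418 and AY036118, and the libraries had been enriched for polyadenylated RNA. What part leftover ribosomal RNA had in these values was not tested. In the anti-ITGA5 uncoated group the share was 0.143%, 0.0714% and 0.958%, and replicate 3 thus stood apart. With these 3 genes removed from the table, 57 genes passed, including each of the other 55 called before.

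**Figure D4:**
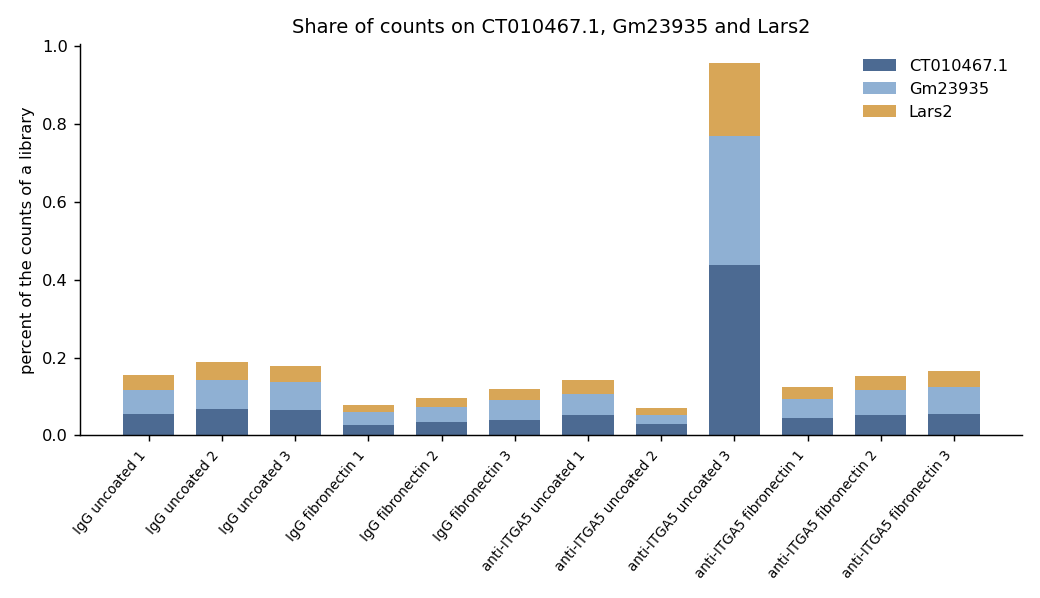
Percent of the counts of each of the 12 libraries that fell on CT010467.1, Gm23935 and Lars2, stacked. The IgG uncoated libraries reached 0.155 to 0.190% and the IgG fibronectin libraries 0.0794 to 0.120%, and anti-ITGA5 uncoated replicate 3 reached 0.958%.

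The same coating comparison in anti-ITGA5-treated cells shares no library with the IgG comparison, and it gave a second reading of the called genes. No gene passed there with edgeR (0 of 12934 tested, 0%), although 470 had an unadjusted p-value under 0.05, and DESeq2 called 5. The spread between replicates was larger, with a common biological coefficient of variation of 0.0903 against 0.0451 in IgG. Of the 42 genes called higher in IgG, 37 were also positive in anti-ITGA5 and 20 of these had an unadjusted p-value under 0.05. The median of the 42 was 0.26 in IgG and 0.13 in anti-ITGA5. Of the 15 lower genes that could be tested in both, 12 were negative, 2 of them with an unadjusted p-value under 0.05. The median of the 15 was -0.29 in IgG and -0.091 in anti-ITGA5. These genes were chosen by their IgG values, so the medians cannot measure an effect of the antibody. Over the 12673 genes tested in both, 58.7% had the same sign. The class II genes held their direction, with log2 fold changes in anti-ITGA5 of 1.11 for H2-Eb1 (SE 0.21), 1.00 for H2-Aa (SE 0.28), 0.77 for Cd74 (SE 0.11) and 0.55 for H2-Ab1 (SE 0.16). Cd74 read 6.35, 6.75 and 7.43 FPKM on uncoated dishes and 10.6, 13.1 and 11.9 FPKM on fibronectin in these cells. Col18a1 (0.56, SE 0.11) and Npy (0.46, SE 0.094) were positive as well. The interaction, the effect in anti-ITGA5 minus that in IgG, was -0.57 for H2-Aa (SE 0.32), -0.39 for Cd74, -0.31 for H2-Ab1, -0.18 for H2-Eb1, -0.069 for Col18a1 and -0.068 for Npy, none past the test. Genes of opposite sign were Mmp12, Basp1, 2410015M20Rik, Ptprs and Folr2 among those higher in IgG and Igfbp4, Itga8 and Pik3cg among those lower.

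**Figure D5:**
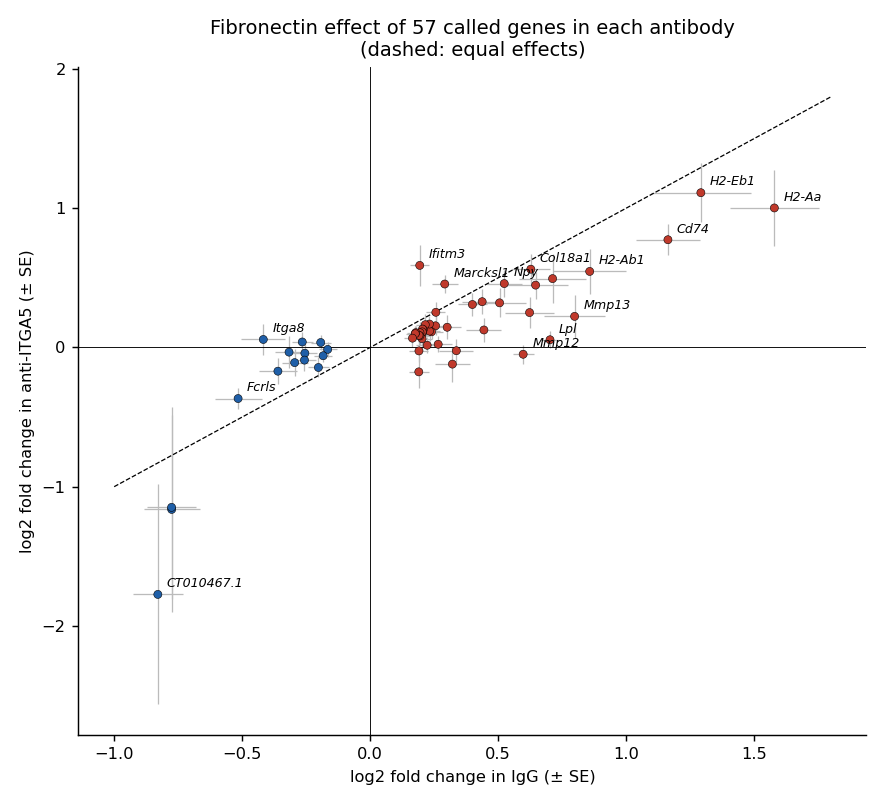
Log2 fold change on fibronectin in anti-ITGA5 (vertical, with SE) against that in IgG (horizontal, with SE) for the 57 called genes tested in both, red for higher and blue for lower in IgG, with a dashed line where both are equal. H2-Eb1, Col18a1 and Npy lie near the line, and Lpl and Mmp12 near zero on the vertical axis at 0.056 and -0.049.

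The effect of the coating differed between antibodies for 3 of 13611 genes (0.022%) in the edgeR test of the interaction. For Lpl the coating effect was 0.70 in IgG and 0.056 in anti-ITGA5 (interaction -0.65, SE 0.070, adjusted p = 0.00157 by edgeR). In anti-ITGA5 cells Lpl read 97.6, 95.9 and 99.3 FPKM without and 96.3, 100.9 and 110.1 FPKM with fibronectin, so that its level on fibronectin was below the IgG fibronectin level in every library. Its level on uncoated dishes was above the IgG uncoated level (84.1, 86.3 and 84.2 FPKM) in every library, so both sides entered the interaction. For Mmp12 the interaction was also -0.65 (SE 0.083, adjusted p = 0.00767 by edgeR), and here the anti-ITGA5 libraries were at 71.2, 70.2 and 68.2 FPKM without and 64.2, 75.3 and 65.3 FPKM with fibronectin, so that all 6 lay above the IgG uncoated libraries. The third gene, the processed pseudogene Gm18194, did not pass in IgG. It had 97, 200 and 324 counts in the anti-ITGA5 uncoated libraries and 3 to 44 in the other 9. The next in order, Dusp6 and Tmem134, did not pass (adjusted p = 0.341 and 0.817 by edgeR). The interaction of Mmp12 was lost without IgG uncoated replicate 1 or IgG fibronectin replicate 3 (adjusted p of up to 0.0577 by edgeR), and that of Lpl passed without each of the 12 libraries in turn.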

How the data were processed

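Polyadenylated RNA of 12 libraries was sequenced as 150 bp paired-end reads. The authors aligned reads to mm10 (GRCm38.p6) with TopHat2 2.0.9, counted them per gene with HTSeq 0.6.1 and computed FPKM, with Cufflinks 2.1.1 also named. They deposited 1 table of raw counts and 1 of FPKM. The annotation release and the strand setting are not given in the sources used here, so overlapping and antisense genes cannot be separated.

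Counts of the 6 IgG libraries were tested in R 4.3.3 with edgeR 4.0.16 (TMM, quasi-likelihood, no covariate, Benjamini-Hochberg) on genes with at least 10 counts in 3 or more libraries, and called at an adjusted p of 0.05 or less, the threshold the study used with DESeq2. The anti-ITGA5 coating effect and the interaction were fitted in the same way. The standard error is the log2 fold change divided by the square root of F. The deposited FPKM give levels only. A 2-sided exact permutation test of 3 against 3 cannot go below p = 0.10, so single-gene p-values rest on the fit across all genes. limma 3.58.1 and DESeq2 1.42.0 served as alternatives, and the edgeR code was tested on simulated data. The deepest and shallowest of the 6 libraries had 22075432 and 17365862 counts. For pairs of replicate libraries the chi-square, averaged over genes, was 2.79 to 4.80. This average was above sampling noise in every pair, so none was a copy.

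Genes named were the 15 largest rises and falls with at least 10 counts in every library and no overlap, the 10 smallest adjusted p-values, the 5 most abundant called genes, the 5 smallest interaction p-values, and members of gene lists by role. The remaining called genes, such as Gm38120, were picked with their values in view. The genes, the lists and the alternatives were chosen with earlier results of these data known. Promoter windows are from RefSeq on GRCm38.p6, and 45 of the 58 called genes had one.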

Additional observations from a re-analysis of the deposited data

Results flagged for a closer look

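The coating effect differed between IgG and anti-ITGA5 in the interaction test for 3 genes, given as the log2 effect in anti-ITGA5 minus that in IgG. The difference was -0.65 for Lpl, -0.65 for Mmp12 and -6.15 for Gm18194. Leaving out 1 library at a time gave -0.71 to -0.60 for Lpl, -0.72 to -0.60 for Mmp12 and -6.77 to -5.67 for Gm18194, which lost the call in 7 of these 12 fits. Single libraries were not tested as outliers within groups of 3.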

How the results depend on the processing

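The counts of called genes depended on the processing. In IgG, genes called higher and lower numbered 84 and 41 with DESeq2, 175 and 66 without a filter on low counts, 9 and 1 with all 12 libraries in one fit, 5 and 2 with limma on log2(FPKM + 1), 5 and 0 on log2(FPKM + 0.1), 8 and 9 on log2(FPKM + 1) without a filter, 12 and 4 at an adjusted p of at most 0.01, and 3 and 1 at a log2 fold change of at least 1. Leaving out 1 library gave 6 to 72 higher and 3 to 23 lower. DESeq2's filter on mean counts left 10146 genes, 21 of the 58 called among them, without an adjusted p. DESeq2 without that filter, added after seeing the data, called 77 higher and 27 lower and lost only Mmp8 of the 58. No called gene changed sign under any alternative run. The alternatives took the effect from the same IgG libraries, whose groups did not overlap for any of the 58, so this is no independent support. The counts stayed within 1.5 times under DESeq2 size factors, total counts, both stricter filters on low counts, thinning to the smallest library and the added limma fits on log2 CPM.

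In anti-ITGA5, DESeq2 called 4 higher (3 of them, Marcksl1, Col18a1 and Cd74, also called in IgG) and 1 lower, and leaving out 1 library gave 0 to 4 higher (4 without anti-ITGA5 uncoated replicate 3) and 0 to 3 lower (3 without anti-ITGA5 uncoated replicate 1). The interaction gave 1 to 6 genes on leaving out 1 library, 1 without IgG uncoated replicate 1 or IgG fibronectin replicate 3 and 6 without anti-ITGA5 uncoated replicate 3.

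Replicate numbers are shared by the groups. Deviations of same-numbered IgG libraries correlated at 0.055, 0.152 and 0.117, and those of differently numbered ones at -0.108 to -0.011. All same-numbered values were thus positive and all others negative. The main fit did not take the numbers as pairs, because the same-numbered values were not all above 0.1. This does not exclude pairing, and the calls and missing calls given above hold for the unpaired fit. Each library still correlated best with its own number. With the replicate block 282 genes were called higher and 129 lower in IgG, all 58 among them, and in anti-ITGA5 0 and 2.

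Named genes without a call gained one in 24 cases, namely Itgav in 6 alternatives, Ctss in 5, Itga4 and Itgax in 4 each, Arg1 in 3 and Cd36 in 2, in each case including the fits without a filter on low counts and with the replicate block. Itga5 had a log2 fold change of -0.00228 under total counts. On leaving out 1 library the sign turned for Itga5 (-0.017 to 0.066), Itgb5 (-0.034 to 0.044), Itgam (-0.00061 to 0.057), Fn1 (-0.26 to 0.17) and Mmp14 (-0.020 to 0.34). The cause of these changes was not tested.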
